A study of Homo sapiens with 6 samples.

Results

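Lysophosphatidic acid (LPA) receptors and autotaxin were examined in MDA-MB-231 cells, a human cell line established from a triple negative breast cancer, after stable knockdown of PELP1. The members were chosen by gene symbol with earlier results of these data known: LPAR1, LPAR2, LPAR3, LPAR5, LPAR6 and ENPP2, which are 6 of the 23228 genes counted. RNA-seq compared 3 replicates of control shRNA cells with 3 replicates of PELP1-KD cells. All cells carried a stably expressed shRNA and had been selected with puromycin; the control shRNA has no target, and the study's methods describe 1 lentiviral shRNA against PELP1, so an effect of that shRNA apart from PELP1 cannot be told apart from the knockdown. Whether the selected cells were a pool or a clone is not given in the sources used here. The labels do not say whether replicates came from separate cultures or selections, and p-values then measure only the spread between these samples, which may be technical. Because the members were chosen on this comparison, their values are given as a description without a test; genes outside the member list were tested by the quasi-likelihood test of edgeR.

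LPA is a small lipid that acts outside the cell as a growth and migration signal. Autotaxin, the secreted enzyme encoded by ENPP2, makes most LPA in blood plasma by cutting lysophosphatidylcholine. LPA receptors are G protein-coupled receptors of the cell surface: LPAR1, LPAR2 and LPAR3 belong to the EDG family together with the receptors for sphingosine-1-phosphate (S1P), whereas LPAR4, LPAR5 and LPAR6 are closer to the purinergic P2Y receptors. Through their G proteins the receptors can lower cyclic AMP, release calcium through phospholipase C, or activate RhoA, and these effects differ between receptors. In breast cancer cells LPA is known to drive migration and invasion.

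LPAR1 and LPAR2 were the members with enough reads to be tested, and the sequences in front of their starts are shown because these genes differed between the groups in opposite directions. In GENCODE (GRCh38), LPAR1 lies on the minus strand of chromosome 9 from 110873263 to 111038458, and its longest coding transcript has 5 exons. LPAR2 lies on the minus strand of chromosome 19 from 19623668 to 19628930, and its longest coding transcript has 6 exons. No exon base of either gene lies under an exon of another gene, and none of the 50-base windows of their transcripts occurs in a transcript of another gene (0 of 4192 for LPAR1 and 0 of 3300 for LPAR2), in this annotation. RefSeq (GRCh38.p14) lists 6 promoters for LPAR1, some of which overlap, and 1 for LPAR2. Below are the 250 bases before the LPAR1 start at 111038470 (chr9:111038471-111038720, minus strand), the RefSeq start nearest to the GENCODE 5′ end. They are followed by the 250 bases before the LPAR2 start at 19628220 (chr19:19628221-19628470, minus strand). That LPAR2 start and the bases printed before it lie inside the GENCODE span of LPAR2, not ahead of its GENCODE 5′ end. Capitals mark the motifs found, with both strands searched for each, so that a GC box of the other strand reads CCGCCC. The GC box was spelled GGGCGG and is a binding site of SP1-type factors. The AP-1 site, bound by FOS and JUN proteins, was spelled TGACTCA. The letters CCAAT stood for the box of that name. The TATA box was taken as TATAAA in this search. The E-box bound by MYC was searched as CACGTG.
LPAR1: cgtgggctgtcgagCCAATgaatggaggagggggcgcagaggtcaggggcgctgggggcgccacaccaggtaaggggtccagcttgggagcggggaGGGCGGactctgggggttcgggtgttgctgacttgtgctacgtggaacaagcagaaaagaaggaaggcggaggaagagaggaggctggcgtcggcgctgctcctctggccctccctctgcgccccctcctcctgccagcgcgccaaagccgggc
LPAR2: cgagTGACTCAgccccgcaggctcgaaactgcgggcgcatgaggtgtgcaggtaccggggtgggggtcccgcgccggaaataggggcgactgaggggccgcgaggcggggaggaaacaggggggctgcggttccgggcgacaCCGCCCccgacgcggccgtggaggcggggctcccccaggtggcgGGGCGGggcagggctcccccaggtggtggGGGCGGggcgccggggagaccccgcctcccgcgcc

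Each promoter in the RefSeq table spans 300 bases, 250 before the start and 50 after it. The LPAR2 promoter held 3 GC boxes and 1 AP-1 site, the latter beginning 246 bases before the start. The AP-1 letters were found in 0 of the 6 LPAR1 promoters and in 4.95% of all 35116 promoters. GC boxes were found in 5 of the 6 LPAR1 promoters, and 45% of all promoters have the GC box letters. The E-box was in no promoter listed for LPAR1 or LPAR2, against 7.26% of all promoters. These matches describe letters, and binding was not measured.

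Reads counted on genes ranged from 17304864 to 23132102 per library, so that 3 counts, taken as the floor of detection in a library, stood for 0.127 to 0.177 CPM (counts scaled to a common library size with edgeR's TMM factors); such floors cover counting error only. PELP1, the targeted gene and a coregulator of nuclear receptors, had 57.8 ± 2.13 CPM (SD over n = 3) in control cells and 29.5 ± 0.876 CPM (SD over n = 3) after knockdown, a log2FC of -0.97 (SE 0.055; edgeR adjusted p = 1.48e-11). Of 5 genes expected in this line, VIM, CD44 and AXL fell (log2FC -0.21, -0.55 and -0.13, edgeR adjusted p 7.19e-06, 8.62e-13 and 1.87e-04), and MSN had a log2FC of -0.08 (adjusted p 0.0529). SPARC, the least abundant, rose from 5.02 to 14.8 CPM (log2FC 1.57, adjusted p 1.74e-10). The summed level of these 5 markers was 5220 to 5340 CPM in control replicates and 4440 to 4530 CPM in PELP1-KD replicates, and their part in the results was not tested. ESR1, PGR and CDH1 had at most 4 reads in any replicate, while KRT8 and GATA3, also listed as low, were at 284 and 6.97 CPM in the control cells. The summed level of 6 leukocyte and endothelial markers was 0.828 to 1.13 CPM in control replicates and 1.38 to 1.92 CPM in PELP1-KD replicates, with PTPRC at 0 in all libraries; VWF, at 1, 6 and 0 reads in the controls and 12, 20 and 16 in PELP1-KD cells, moved with the groups, and its part in the results was not tested.

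LPAR1, the most widely expressed LPA receptor, was the member with the largest difference. Its counts in replicates 1, 2 and 3 were 512, 586 and 459 for control cells and 119, 112 and 120 for PELP1-KD cells. Scaled to library size these were 30.3, 25.8 and 25.8 CPM in the controls and 6.1, 5.25 and 5.1 CPM in PELP1-KD cells. All PELP1-KD replicates lay far below all control replicates, and the spread within either group was small beside the distance between them. The mean level was 27.3 ± 2.57 CPM (SD over n = 3) against 5.48 ± 0.542 CPM (SD over n = 3), with a log2FC of -2.32 (SE 0.097), so that PELP1-KD cells held 0.201 times the control level. In bulk samples, fewer cells with LPAR1 and less LPAR1 RNA per cell cannot be told apart. Of the 12796 genes tested, 24 had a lower log2FC than LPAR1. Leaving out single replicates kept the log2FC between -2.39 and -2.24.

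LPAR2, a receptor whose tail binds PDZ proteins and which is known to be raised in several carcinomas, was higher in PELP1-KD cells. Its counts in replicates 1, 2 and 3 were 119, 159 and 98 for control cells and 254, 251 and 250 for PELP1-KD cells. In CPM the controls were at 7.03, 6.99 and 5.52 and PELP1-KD cells at 13, 11.8 and 10.6. The groups again did not overlap, and the lowest PELP1-KD replicate stood well above the highest control. The mean was 6.52 ± 0.864 CPM (SD over n = 3) in control cells and 11.8 ± 1.2 CPM (SD over n = 3) under knockdown, and the log2FC was 0.85 (SE 0.11), which is 1.8 times the control level. Left out in turn, the replicates moved this log2FC between 0.74 and 0.92.

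Of the 6 members, 2 passed the filter on low counts, 1 lower and 1 higher in PELP1-KD cells. Among all genes tested, 46.9% were past an adjusted p-value of 0.05 in edgeR's test (24.2% lower and 22.7% higher). Groups did not overlap in 55% of these genes. The log2FC of LPAR1 was beyond 1 and that of LPAR2 was not. A log2FC beyond 1 with an adjusted p-value below 0.05 was found for 1.34% of genes in the lower direction and 1.9% in the higher. The members were chosen on this comparison, and nothing is read from their count.

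**Figure D1:**
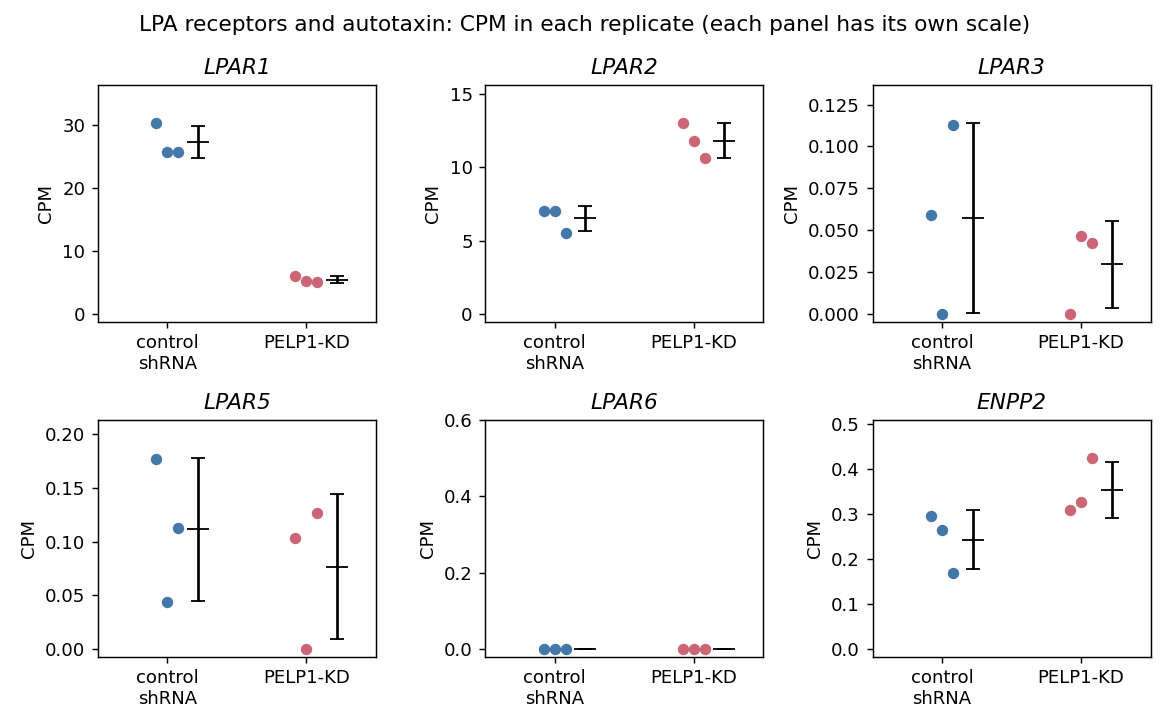
CPM (vertical axis, a separate scale in each panel) of the 6 members in 3 control shRNA and 3 PELP1-KD replicates; points are replicates, and the horizontal mark and bars are the mean ± SD. LPAR1 goes from 27.3 to 5.48 CPM and LPAR2 from 6.52 to 11.8 CPM without overlap, while LPAR3, LPAR5, LPAR6 and ENPP2 all stay below 0.5 CPM.

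The opposite differences changed which receptor's mRNA was the more abundant, and receptor protein was not measured in these data. Within each library, the ratio of LPAR1 reads to LPAR2 reads does not depend on the scaling between libraries. In replicates 1, 2 and 3 this ratio was 4.3, 3.69 and 4.68 for control cells and 0.469, 0.446 and 0.48 for PELP1-KD cells. LPAR1 reads thus outnumbered LPAR2 reads in all control libraries, and the reverse held in all PELP1-KD libraries.

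Levels of different genes were compared per length, as RPKM (CPM per kilobase of exon). In control cells LPAR1 was at 7.28, 6.2 and 6.21 RPKM and LPAR2 at 2.36, 2.35 and 1.85 RPKM in replicates 1, 2 and 3. In PELP1-KD cells LPAR1 was at 1.47, 1.26 and 1.23 RPKM and LPAR2 at 4.37, 3.95 and 3.56 RPKM. The ranges of both genes did not overlap within either group, so that the order was LPAR1 above LPAR2 in control cells and LPAR2 above LPAR1 in PELP1-KD cells. The RPKM ratio of LPAR1 to LPAR2 was 3.03 ± 0.361 (SD, n = 3) in control cells and 0.333 ± 0.0123 (SD, n = 3) in PELP1-KD cells. Measured by the longest coding transcript in place of all exons, these ratios were 2.96 and 0.325.

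Summed over LPAR1 to LPAR6, receptor RPKM was 9.73, 8.57 and 8.17 in control replicates and 5.9, 5.28 and 4.88 in PELP1-KD replicates. LPAR6 entered this sum and the shares below as 0, and whether the counting left its reads out was not tested. The sum was lower in all PELP1-KD replicates, since the difference in LPAR1 was the larger in RPKM. LPAR1 made up 74.4% ± 1.92 (SD, n = 3) of the sum in control cells and 24.6% ± 0.644 (SD, n = 3) in PELP1-KD cells. LPAR2 made up 24.8% ± 2.39 (SD, n = 3) and 73.9% ± 0.864 (SD, n = 3). Among 12296 tested genes with a length, the RPKM of LPAR1 exceeded that of 49.3% of genes in control cells and 19.2% in PELP1-KD cells, and that of LPAR2 exceeded 26.7% and 37.6%.

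**Figure D2:**
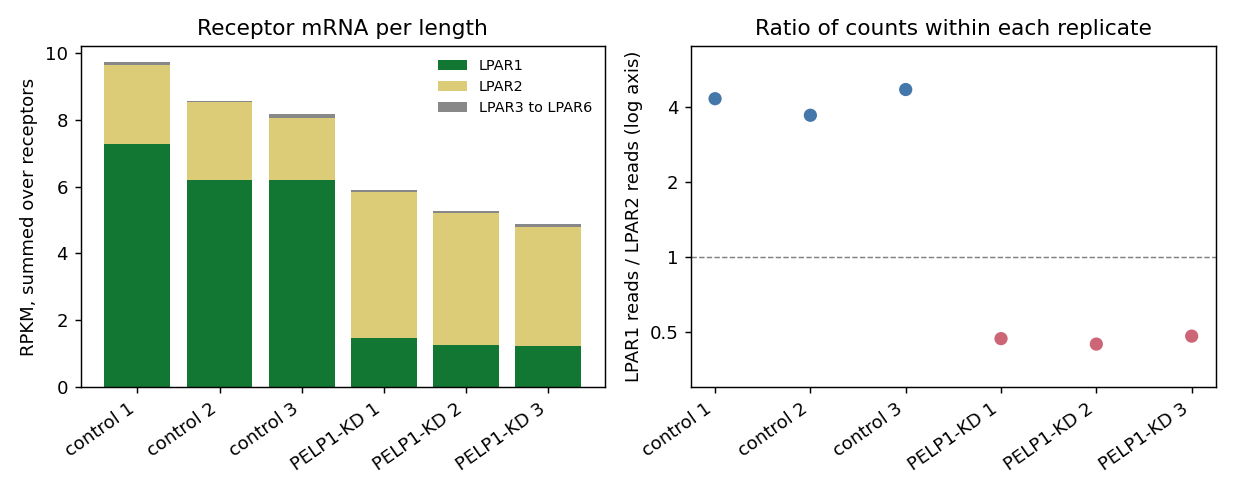
Left, RPKM of LPAR1, LPAR2 and the sum of LPAR3 to LPAR6, stacked for each replicate; right, LPAR1 reads divided by LPAR2 reads in each replicate on a log axis, with a dashed line at 1. The controls lie between 3.69 and 4.68 and the PELP1-KD replicates between 0.446 and 0.48, on the other side of the line.

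The other receptors were at or near the limit of detection. LPAR3, the EDG-family receptor known from embryo implantation and located on chromosome 1 (84811602 to 84893213 in GRCh38, minus strand), had 1, 0 and 2 reads in control cells (replicates 1, 2 and 3) against 0, 1 and 1 in PELP1-KD cells. LPAR5, a P2Y-related receptor on chromosome 12 (6618835 to 6636447, minus strand), had 3, 1 and 2 reads in the controls and 2, 0 and 3 in PELP1-KD cells. No replicate of either gene exceeded the floor of 3 counts, and a difference was not detectable at this depth. LPAR6, a P2Y-related receptor needed for hair growth, was listed at 0 in all 6 replicates, and whether the counting left its reads out was not tested. A count of 0 allows up to 3 counts, or 0.127 to 0.177 CPM in a library.

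LPAR6 lies on the minus strand of chromosome 13 (48389567 to 48444704 in GRCh38) within the span of RB1, the retinoblastoma gene, on the opposite strand. No exon base of LPAR6 lies under an exon of RB1 or any other gene in GENCODE, and 0.328% of its 50-base windows occur in transcripts of other genes. RB1 itself fell from 139 ± 9.42 CPM (SD over n = 3) to 76.6 ± 5.84 CPM (SD over n = 3), a log2FC of -0.86 (SE 0.054; edgeR adjusted p = 6.8e-11). The strand setting of the counting is not given in the sources used here. LPAR4, which was not a member, had 1, 1 and 2 reads in the controls and 2, 4 and 3 under knockdown. In control cells the counts of LPAR3, LPAR4 and LPAR5 overlapped, and in PELP1-KD cells those of LPAR4 lay above those of LPAR3 by a few reads near the floor. LPAR3, LPAR4 and LPAR5 stood below LPAR1 and LPAR2 in every replicate. The place of LPAR6 is not given, since whether the counting left its reads out was not tested.

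ENPP2, which encodes autotaxin, was detected at a low level. Control replicates 1, 2 and 3 held 5, 6 and 3 of its reads, against 6, 7 and 10 for PELP1-KD. In CPM these were 0.296, 0.264 and 0.169 against 0.308, 0.328 and 0.425. The PELP1-KD replicates were the higher in CPM, by a margin that is small beside the counting error. Over the summed counts, 14 against 23, the ratio of PELP1-KD to control was 1.46 (95% exact interval for counting error 0.722 to 3.08), which includes both equal levels and a change larger than that of LPAR2. ENPP2 was left untested by the filter on low counts. Of its 50-base windows, 1.65% occur in the pseudogene CYCSP23, which overlaps 162 of its exon bases.

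**Figure D3:**
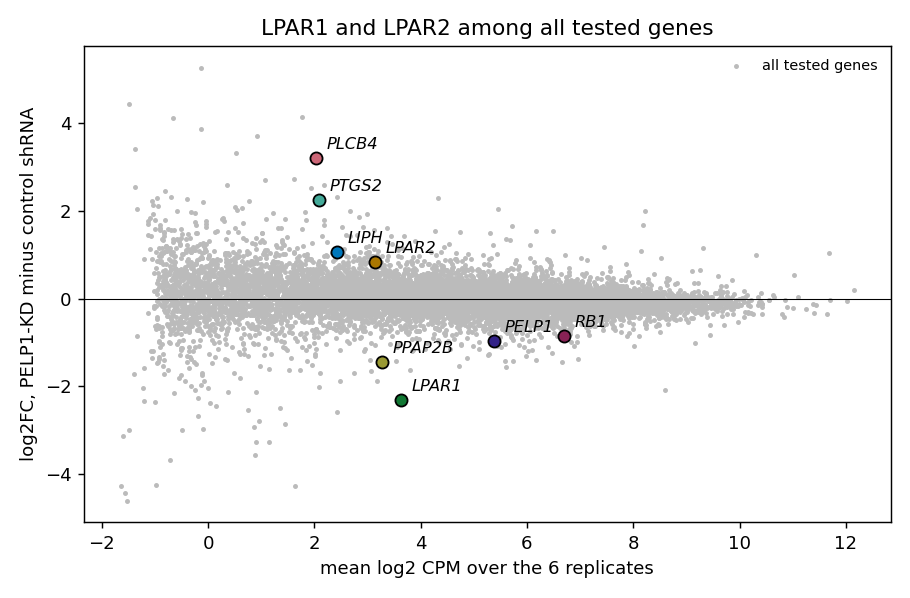
Each grey point is a tested gene, with its mean log2 CPM over the 6 replicates (horizontal axis) and its log2FC, PELP1-KD minus control shRNA (vertical axis). Named points are LPAR1, LPAR2, PELP1, RB1 and 4 genes from the lists described below: PLCB4, PTGS2, PPAP2B and LIPH. LPAR1 at -2.32 lies at the lower edge of the cloud, and LPAR2 at 0.85 lies in its upper part.

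The likeness of profiles was measured as the distance between log2 CPM over the 6 libraries after each gene was centred on its mean. Among the genes nearest to LPAR1 were the collagenase MMP1 at a distance of 0.348 (Pearson's r 0.997) and the ligand WNT5A at 0.483 (r 0.988). MMP1 had a log2FC of -2.08. WNT5A was at 0.585 CPM in control cells and at 0.064 CPM, below the floor of detection, in PELP1-KD cells. Its distance therefore depends on the prior count used for log2 CPM, and its fitted log2FC rests on few reads. Nearest to LPAR2 were TLR1, a receptor for bacterial lipopeptides, at 0.16 (r 0.99), the protease MMP11 at 0.167 (r 0.99) and RDM1 at 0.185 (r 0.988). Their log2FC were 0.93, 0.83 and 0.82. Over 6 libraries in 2 groups the likeness describes mainly the difference between groups, which many genes share.

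Other genes were taken from 12 lists of 114 genes in all, of which 86 were tested. Besides LPA metabolism and signaling, the lists cover genes induced by LPA in many cells. They also cover related families: S1P receptors, S1P enzymes and exporters, P2Y receptors and other ENPP members. All of these genes together are called pathway genes below. With edgeR's test and a threshold of 0.05 on the adjusted p, 21 were lower (24.4%) and 27 were higher (31.4%), against 24.2% and 22.7% of all genes tested. Their median log2FC was 0.04, and that of all tested genes was 0.0014. The calls past a log2FC of 1 in either direction were 5 of 86, against 414 of the 12796 genes tested. The lists were chosen with earlier results of these data known, so nothing is read from these counts. The same holds for the counts of single lists below, beside which the shares of all genes tested given here also stand.

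Enzymes that make LPA other than autotaxin had 7 tested genes of 10, of which 2 were higher and 0 lower (median log2FC 0.07). LIPH, a phospholipase that makes LPA at the cell surface from phosphatidic acid, rose from 50, 91 and 70 reads in the controls to 145, 167 and 183 in PELP1-KD cells. Its level was 3.63 ± 0.588 CPM (SD over n = 3) against 7.68 ± 0.211 CPM (SD over n = 3), a log2FC of 1.07 (SE 0.13; edgeR adjusted p = 1.01e-06), and the groups did not overlap. GDPD1, an intracellular lysophospholipase D, rose by a log2FC of 0.58 (adjusted p-value 0.00406). The mitochondrial kinase AGK was the most abundant of the list per length, at 6.75 and 6.94 RPKM, with a log2FC of 0.04. PLA1A, LIPI and PLA2G2A were at 0 in all libraries.

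Enzymes that remove LPA had 9 tested genes, of which 2 were lower and 2 higher (median log2FC -0.02). PPAP2B, now named PLPP3, an ectoenzyme that dephosphorylates LPA outside the cell, had 267, 367 and 271 reads in the controls and 114, 109 and 148 in PELP1-KD cells. It fell from 15.7 ± 0.446 CPM (SD over n = 3) to 5.75 ± 0.596 CPM (SD over n = 3), a log2FC of -1.45 (SE 0.098; edgeR adjusted p = 2.1e-10). Its paralog PPAP2C (PLPP2) rose by a log2FC of 0.17 (adjusted p-value 0.0064), and PPAP2A (PLPP1) had a log2FC of 0.13 (adjusted p-value 0.266). The acyltransferase AGPAT1, which turns LPA into phosphatidic acid and was the most abundant of the list at 63.4 and 69.3 RPKM, rose by a log2FC of 0.13. The call of the LPA phosphatase ACP6, a log2FC of -0.2 (adjusted p-value 0.0497), was lost under DESeq2 (adjusted p-value 0.126), RLE factors (0.0518) and library totals (0.136), and without control replicate 1 (0.0597) or 2 (0.19) or PELP1-KD replicate 2 (0.0681) or 3 (0.233).

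**Figure D4:**
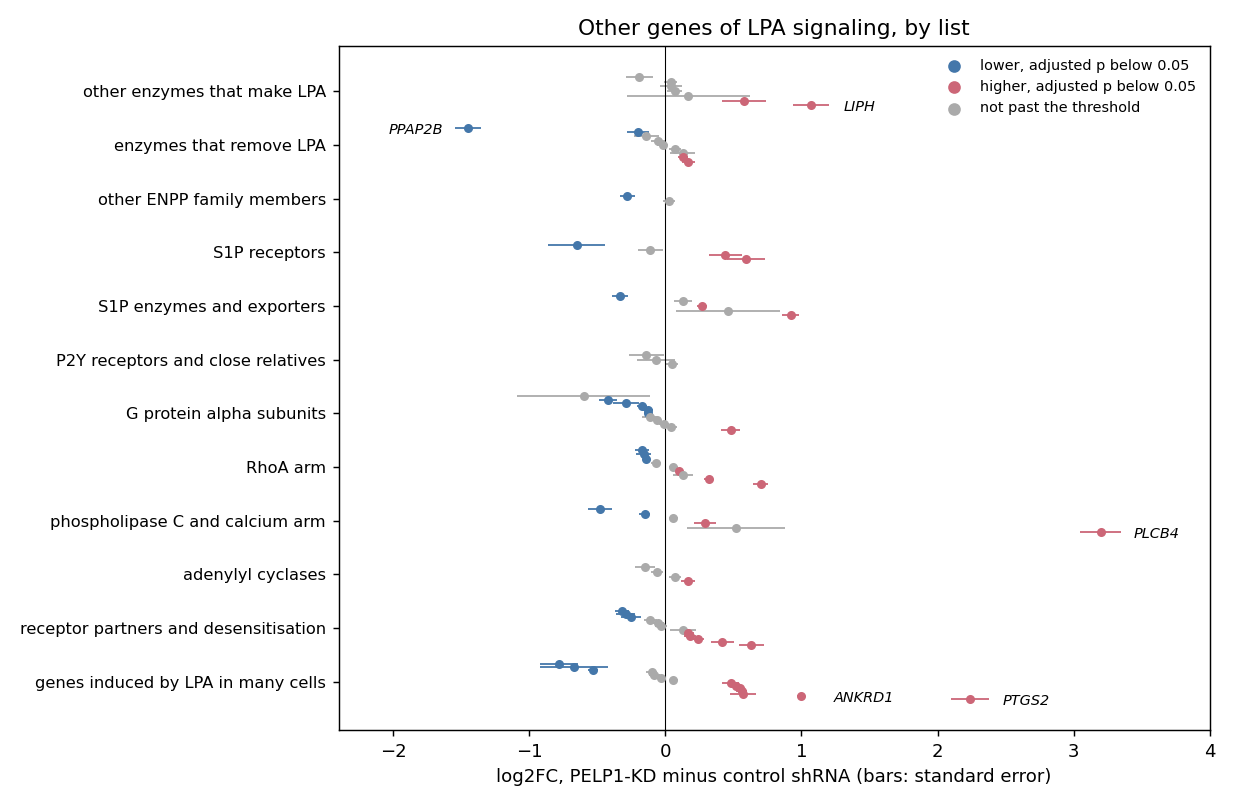
Log2FC (horizontal axis, PELP1-KD minus control shRNA) with its standard error for each tested gene of the 12 lists; blue and red points are past an adjusted p-value of 0.05. Genes at a log2FC of 1 or beyond are named: PPAP2B at -1.45, and LIPH, ANKRD1, PTGS2 and PLCB4 at 1.07, 1.0, 2.24 and 3.2.

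The G protein alpha subunits that couple LPA receptors to their effectors had 11 tested genes, with 5 lower and 1 higher (median log2FC -0.13). The falls were small: GNA15, GNAQ and GNAI3 had a log2FC of -0.42, -0.29 and -0.17, and the call of GNAQ (adjusted p-value 0.0176) was lost when control replicate 2 (0.0763), PELP1-KD replicate 1 (0.0759) or PELP1-KD replicate 2 (0.0767) was left out. GNAO1 rose by a log2FC of 0.48 (edgeR adjusted p = 6.71e-06). GNAS, which raises cyclic AMP and was the most abundant at 66.2 and 60.7 RPKM, fell by 0.13 on the log2 scale. Of 9 genes in the RhoA arm, 3 were lower and 3 higher. The GTPases RHOB and RHOC rose by a log2FC of 0.7 and 0.32 (adjusted p 2.51e-09 and 1e-07), and RHOA, the most abundant at 327 and 297 RPKM, had a log2FC of -0.14 (adjusted p-value 1.6e-04). The kinase ROCK1 and the exchange factor ARHGEF11 had a log2FC of -0.17 and -0.16 and the exchange factor ARHGEF12 had 0.1; the calls of ARHGEF11 (adjusted p-value 0.0149) and ARHGEF12 (0.00824) were lost in some settings. For ARHGEF11 the adjusted p-value was 0.0801 with library totals, 0.0673 without control replicate 3 and 0.0713 without PELP1-KD replicate 2, and for ARHGEF12 it was 0.0683 without control replicate 2.

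In the phospholipase C and calcium arm, 2 of 6 tested genes were lower and 2 higher. PLCB4, a phospholipase C beta activated by Gq, had the largest log2FC of all the lists. It had 22, 23 and 29 reads in the controls and 247, 249 and 270 in PELP1-KD replicates. The level rose from 1.31 ± 0.311 CPM (SD over n = 3) to 11.9 ± 0.643 CPM (SD over n = 3), a log2FC of 3.2 (SE 0.15; edgeR adjusted p = 6.74e-13). PLCB3 was the more abundant paralog per length, at 24.8 RPKM in control and 22.2 RPKM in PELP1-KD cells against 0.191 and 1.73 RPKM for PLCB4, and fell by 0.15 on the log2 scale. The calcium channels of the endoplasmic reticulum ITPR2 and ITPR1 had a log2FC of -0.48 and 0.29, and ITPR3, the most abundant of the list at 32.8 and 34.3 RPKM, had 0.06. Of 4 tested adenylyl cyclases, ADCY9 rose by a log2FC of 0.17 (adjusted p-value 0.00775), and the most abundant, ADCY3 at 21.8 and 20.9 RPKM, had a log2FC of -0.06 (adjusted p-value 0.222).

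Among 12 partners of LPA receptors and proteins that switch receptors off, 3 were lower and 5 higher. SLC9A3R2 and MAGI3, PDZ proteins that bind the tail of LPAR2, fell by 0.32 and 0.25 on the log2 scale (adjusted p-value 3.57e-05 and 0.00806 from edgeR's quasi-likelihood test), and the call of MAGI3 was lost without PELP1-KD replicate 3 (0.0573). TRIP6, another partner of LPAR2 and the most abundant of the list at 45.4 and 51.3 RPKM, rose by a log2FC of 0.18. The arrestin ARRB2, which binds activated receptors, rose from 17.1 ± 2.12 CPM (SD over n = 3) to 26.6 ± 3.11 CPM (SD over n = 3), a log2FC of 0.63 (SE 0.092; edgeR adjusted p = 1.03e-05). The receptor kinases ADRBK2 and ADRBK1 rose by a log2FC of 0.42 and 0.24, and GRK5 had a log2FC of -0.29.

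Genes that LPA is known to induce in many cells, and that other signals induce as well, had 14 tested members. Of these, 7 were higher (50%) and 3 lower (21.4%), against 22.7% and 24.2% of all genes tested. Their median log2FC was 0.27. This list was chosen with earlier results of these data known, and nothing is read from its counts. PTGS2, the inducible cyclooxygenase, rose from 40, 40 and 28 reads in the controls to 175, 194 and 207 in PELP1-KD cells, a log2FC of 2.24 (SE 0.14; edgeR adjusted p = 9.88e-11). ANKRD1, a target of YAP, rose from 892 ± 25.3 CPM (SD over n = 3) to 1780 ± 60.5 CPM (SD over n = 3), a log2FC of 1.0 (adjusted p-value 2.86e-16). The stress factor ATF3 and the matricellular gene CYR61, the latter the most abundant of the list at 705 and 1030 RPKM, rose by a log2FC of 0.57 and 0.55. The transcription factors EGR1, FOS and FOSL1 were lower, with a log2FC of -0.78, -0.67 and -0.53 (adjusted p-value 8.04e-05, 0.0361 and 4.03e-10). The call of FOS was lost under DESeq2 (adjusted p-value 0.155) and without control replicate 1 (0.0619) or 2 (0.153) or PELP1-KD replicate 1 (0.112) or 2 (0.108).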

How the data were processed

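RNA-seq was done on 3 control shRNA and 3 PELP1-KD replicates of MDA-MB-231 cells, as stranded poly(A) libraries read once over 50 bases. The authors deposited raw read counts per gene symbol for each replicate; the submitters' processing notes name TopHat2, SAMtools, HTSeq and the build hg19, and versions, annotation and strand setting are not given in the sources used here. Reads without a unique alignment were counted on no gene. Their entries made up 32.5% to 32.9% of all entries counted for each replicate. Entries on no feature made up 7.64% to 8.19% and ambiguous ones 0.657% to 0.688%. Whether a read with several alignments was entered more than once is not given, so these may not be shares of reads. All these entries were left out. Replicates of a group differed by more than sampling noise (chi-square per degree of freedom 1.46 to 4.06).

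Counts were tested in R 4.3.3 with edgeR 4.0.16 (filterByExpr with a minimum count of 10, TMM, quasi-likelihood test, Benjamini-Hochberg adjustment over 12796 genes). The SE was obtained by dividing the log2FC by the root of its F statistic. Log2 CPM used a prior count of 2. Exon lengths came from GENCODE release 29 (GRCh38) for 21462 of 23228 symbols, 1715 of them by a RefSeq synonym; gene spans are therefore not on the authors' build, and RPKM assumes like lengths. The fit was tested on simulated counts. Alternatives were RLE factors, library totals, DESeq2 1.42.0, voom in limma 3.58.1, other filters, the replicate number as a block, and leaving out each replicate.

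The members and lists were chosen with earlier results of these data known. From each list the text names up to 3 called genes in each direction, by size of log2FC, and the most abundant gene by RPKM; for each tested member it names the 3 nearest profiles, of which 1 is not reported here. Genes named outside this rule (PPAP2A, PLA1A, LIPI, PLA2G2A, S1PR1, ENPP1) were added after their values were seen.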

Additional observations from a re-analysis of the deposited data

How the results depend on the processing

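The log2FC of LPAR1 stayed between -2.39 and -2.24 and that of LPAR2 between 0.74 and 0.92 over 13 alternatives, given as a description since both were chosen on this comparison. PELP1 stayed between -0.99 and -0.92. Over the same alternatives between 18 and 23 pathway genes were lower and between 26 and 34 higher. Scaling by library totals alone moved the median log2FC of all genes from 0.0014 to 0.051 and gave 2418 lower and 3817 higher genes over the whole table, against 3103 and 2904 with TMM. Of 1112 values of the 86 pathway genes under these alternatives, 1067 kept their side of the threshold, 26 lost a call, 19 gained a call and 0 called values changed sign. Calls were lost in 8 genes: ACP6, ARHGEF11, ARHGEF12, FOS, GNA13, GNAQ, MAGI3 and S1PR3; the cause was not tested. Replicates share the numbers 1 to 3 across groups, and the labels do not say whether these numbers pair the samples. The departures of replicates 1, 2 and 3 from their group mean had a correlation of 0.039, 0.065 and -0.078 with those of their namesakes. Such small values over all genes cannot show whether namesakes shared a culture or batch, which was not tested. In a fit that took the replicate number for a block, log2FC was -2.31 for LPAR1, 0.85 for LPAR2 and -0.97 for PELP1, and 23 pathway genes were lower and 27 higher, with 3335 and 3140 over all genes. Few reads limit LPAR3, LPAR5 and ENPP2: without the filter on low counts, the log2FC was -0.65 (standard error 1.4) for LPAR3, -0.4 (standard error 1) for LPAR5 and 0.54 (standard error 0.56) for ENPP2.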

Other observations

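S1P is a signaling lysophospholipid like LPA, and its receptors belong to the EDG family together with LPAR1, LPAR2 and LPAR3. Of 4 tested S1P receptors, 2 were higher and 1 lower in PELP1-KD cells. S1PR2 and S1PR5 rose from 3.55 to 5.31 CPM and from 5.31 to 7.16 CPM, a log2FC of 0.59 and 0.44 (edgeR adjusted p = 0.0012 and 0.00434). Per length, S1PR1 was the most abundant in control cells, at 2.18 RPKM against 1.89 RPKM for S1PR5, and S1PR5 in PELP1-KD cells, at 2.55 RPKM against 2.02 RPKM for S1PR1. S1PR3 had a log2FC of -0.65 (adjusted p-value 0.0136), a call lost under DESeq2 (0.0512) and without PELP1-KD replicate 2 (0.0873). Among enzymes and exporters of S1P, 2 of 5 tested genes were higher and 1 lower. SPHK1, a kinase that makes S1P, rose from 28.9 ± 3.26 CPM (SD over n = 3) to 54.9 ± 1.15 CPM (SD over n = 3), a log2FC of 0.92 (SE 0.066; edgeR adjusted p = 5.21e-10). The lyase SGPL1 rose by a log2FC of 0.27, and the phosphatase SGPP1 fell by 0.33 on the log2 scale. SGPP1 went from 19.8 RPKM in control cells, the highest level of the list, to 15.7 RPKM, and SGPL1 from 15.2 to 18.3 RPKM, the highest of the list in PELP1-KD cells.

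Of the P2Y receptors and close relatives, 3 of 14 were tested and 7 were at 0 in all libraries. None of the 3 was past an adjusted p-value of 0.05 in edgeR's quasi-likelihood test. The most abundant was F2R, the thrombin receptor, at 23.1 and 23.9 RPKM, with a log2FC of 0.05. Of the ENPP family other than ENPP2, ENPP4 fell from 8.91 to 7.35 RPKM, by 0.28 on the log2 scale (adjusted p-value 3.62e-04). ENPP1 was at 7.48 and 7.61 RPKM, with a log2FC of 0.03.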
